A study of Mus musculus with 22 samples.

Results

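The asialoglycoprotein receptor subunit Asgr1, the IP3 receptor interacting domain protein Itprid1 (formerly Ccdc129) and the diamine oxidase Aoc1 (formerly Abp1) were examined in mouse lung after instillation of carbon nanotubes. They are 3 of 20018 genes that the array names through RefSeq accessions, and 3 of 16429 that were expressed above the negative controls. The 3 genes were chosen by these same measurements, as genes whose lung log2 ratio fell strongly against control, and so their changes against control are given as a description without a test. Asgr1 was read by 2 probes, Itprid1 by 1 and Aoc1 by 1, and all 4 probes passed the filter on dim signal.

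Female C57BL/6 mice received Mitsui7 at 8 weeks of age as a single intratracheal instillation of 40 µl. Mitsui7 is a multiwalled carbon nanotube, a long and stiff fibre. The doses were 18 µg (6 mice), 54 µg (5 mice) and 162 µg (6 mice). The 5 control mice received the vehicle alone, 0.9% NaCl with 10% bronchoalveolar lavage fluid, which every exposed mouse received as well. Right lung RNA was taken 24 h later. Cy5-labelled lung RNA was hybridized with Cy3-labelled reference RNA pooled from 11 mouse cell lines, which makes each level a ratio, on the log2 scale, of lung over reference. Levels of different genes are therefore not compared.

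Asgr1 is the major subunit of the hepatocyte receptor that captures glycoproteins whose sialic acid caps have been lost, exposing galactose, and delivers them to lysosomes. Asgr2 is its partner subunit. Aoc1 is a copper enzyme that is secreted and oxidizes histamine and the polyamine precursor putrescine. Itprid1 is named after a domain shared with Itprid2, a protein that binds IP3 receptors, the calcium channels of the endoplasmic reticulum. Its own role is poorly described.

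The 22 arrays lay on 7 slides, of which 2 held no control. The fit in limma had a term for dose and another for slide. The median Cy5 signal was 83 to 110 on the 6 arrays of the slides without a control and 89.5 to 164 on the other 16. Divided by local background, this median ranged between 1.52 and 2.05 in controls. The range was 1.25 to 2.11 for 18 µg mice, 1.37 to 2.07 for 54 µg mice and 1.17 to 2.48 for 162 µg mice. All 5 type II alveolar cell markers were expressed, with a mean log2 ratio of 4.69 to 6.09 over the 22 mice, and lung tissue was thus represented on every array. Nothing in the labels ties the number of a mouse to a cage or litter, so the spread given is that between mice of 1 group. In whole lung RNA, fewer cells of a type and less transcript per cell cannot be told apart.

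Asgr1 was lower in every exposed mouse than in every control, and by a similar amount at all doses. On the brighter probe the control log2 ratios were 1.18, 0.33, 0.32, 0.25 and 1.02 in replicates 1 to 5. At 18 µg they ran from -1.42 to -0.41 with a median of -1.06, at 54 µg they were -1.26, -1.75, -1.004, -1.06 and -1.13, and at 162 µg they ran from -1.68 to -0.92 with a median of -1.20. On this probe every control lay above 0 and all 17 exposed mice below it, but the place of 0 depends on the normalization, and only the difference between groups is used. Control replicates 1 and 5 stood above the other 3 controls. The control mean was 0.62 ± 0.44 (SD, n = 5). The mean for 18 µg was -1.01 ± 0.39 (SD, n = 6), for 54 µg -1.24 ± 0.30 (SD, n = 5) and for 162 µg -1.23 ± 0.31 (SD, n = 6), so the order was control, 18 µg, 162 µg and 54 µg, with the doses closer to each other than their spread. The log2 fold change fitted with slide was -1.80 (SE 0.17) at 18 µg, -2.05 (SE 0.18) at 54 µg and -1.95 (SE 0.17) at 162 µg, a 3.49-fold, 4.14-fold and 3.87-fold lower level.

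RefSeq gives Asgr1 a pair of start sites, whose promoter windows overlap. The window of the upstream start is printed here because all exposed mice lay below all controls for this gene. It is chr11:70053874-70054173 on the + strand of GRCm38.p6, from 250 bases before to 50 after the start, with the motif matches described further on in capitals.
Asgr1 promoter: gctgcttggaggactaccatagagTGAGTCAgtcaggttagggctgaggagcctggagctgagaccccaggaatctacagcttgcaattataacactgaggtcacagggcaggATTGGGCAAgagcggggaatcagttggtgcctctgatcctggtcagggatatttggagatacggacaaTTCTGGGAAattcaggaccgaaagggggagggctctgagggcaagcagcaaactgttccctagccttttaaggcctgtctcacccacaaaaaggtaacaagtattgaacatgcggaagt

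The dimmer Asgr1 probe moved the same way, by less. Its control log2 ratios were 0.96, 0.11, 0.054, -0.074 and 0.36, and all 17 exposed mice lay below the lowest of them, between -1.35 and -0.26. The fitted log2 fold change was -1.07 (SE 0.21) at 18 µg, -1.06 (SE 0.22) at 54 µg and -1.13 (SE 0.21) at 162 µg. The scanner software marked its Cy5 signal as well above background in 5 of 5 controls but in only 1 of 6, 2 of 5 and 1 of 6 exposed mice, against 4 of 6, 4 of 5 and 5 of 6 on the brighter probe. Much of the exposed signal of the dimmer probe was therefore close to the floor of the scanner, and local background, with array medians of 64.5 to 78, was not subtracted.

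**Figure D1:**
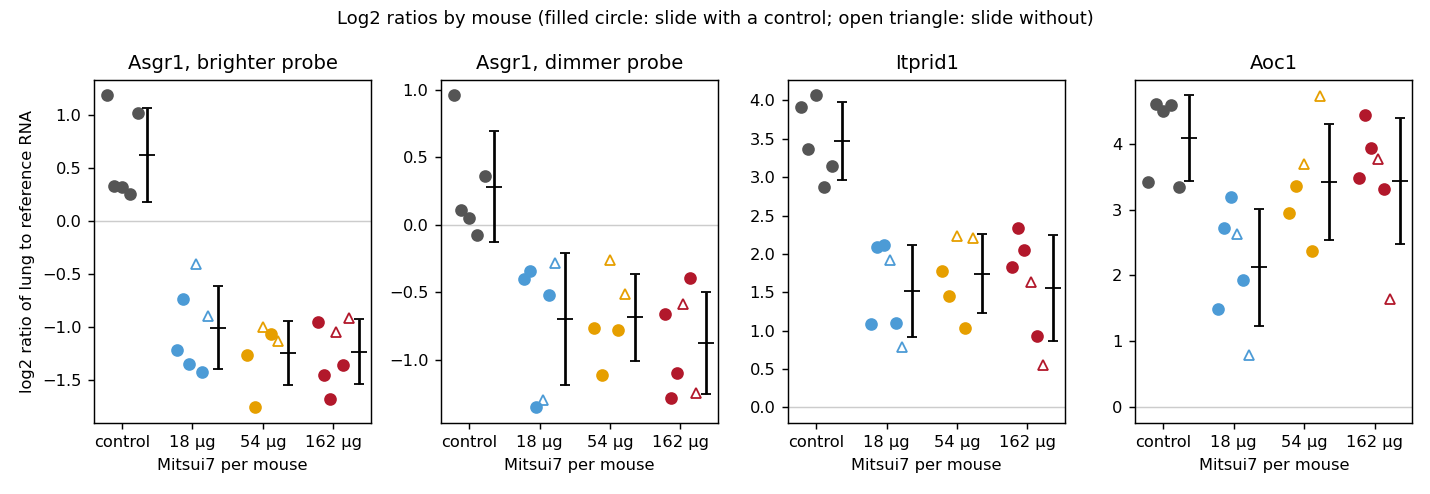
Log2 ratio of lung to reference RNA for both Asgr1 probes, Itprid1 and Aoc1 (y axis) in controls and at 18, 54 and 162 µg of Mitsui7 per mouse (x axis), with 1 point per mouse and the mean ± SD beside each group. Filled circles are mice on slides that hold a control and open triangles are mice on slides without one; Asgr1 and Itprid1 stay below all controls at every dose, while Aoc1 does so only at 18 µg.

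Itprid1 was also lower in every exposed mouse than in every control. The controls had log2 ratios of 3.91, 3.36, 4.07, 2.88 and 3.15. At 18 µg the mice ran from 0.78 to 2.12 with a median of 1.51, at 54 µg they were at 1.77, 1.45, 2.24, 1.03 and 2.21, and at 162 µg they ran from 0.54 to 2.34 with a median of 1.73. The highest exposed mouse thus remained below the lowest control, and the 3 exposed groups covered the same range. Their means were 1.52 ± 0.60 (SD, n = 6), 1.74 ± 0.51 (SD, n = 5) and 1.56 ± 0.69 (SD, n = 6), against 3.47 ± 0.51 (SD, n = 5) in controls. In order, control was followed by 54 µg, 162 µg and 18 µg, with the doses within their spread. The fitted log2 fold change was -1.86 (SE 0.30) at 18 µg, -1.61 (SE 0.32) at 54 µg and -1.88 (SE 0.30) at 162 µg, which are 3.64-fold, 3.06-fold and 3.69-fold lower levels. The Itprid1 promoter window, printed because this gene shared the pattern of Asgr1, is chr6:55836768-55837067 on the + strand of GRCm38.p6.
Itprid1 promoter: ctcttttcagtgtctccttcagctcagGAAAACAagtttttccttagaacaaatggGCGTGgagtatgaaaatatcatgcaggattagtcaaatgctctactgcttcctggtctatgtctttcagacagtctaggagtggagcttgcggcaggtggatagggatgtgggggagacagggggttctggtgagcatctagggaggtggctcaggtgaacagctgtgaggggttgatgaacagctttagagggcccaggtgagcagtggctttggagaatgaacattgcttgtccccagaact

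The reference RNA held almost no Itprid1 signal. Its Cy3 signal was 21.5 to 82 and was well above background on 1 of 22 arrays, that of replicate 2 at 54 µg, whose Cy5 signal of 410 was the highest of the exposed mice. Without that mouse the fitted change at 54 µg was -1.29. With the Cy5 channel alone, scaled to the 75th percentile of each array, the changes of Itprid1 were -1.31, -1.29 and -1.72 at the 3 doses. Cy5 was well above background in all mice except replicate 6 at 162 µg, which had the lowest log2 ratio of all. By contrast, the Asgr1 reference signal was well above background on 22 of 22 arrays, and the Cy5 channel alone gave changes of -1.47, -1.89 and -1.70 for the brighter Asgr1 probe.

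**Figure D2:**
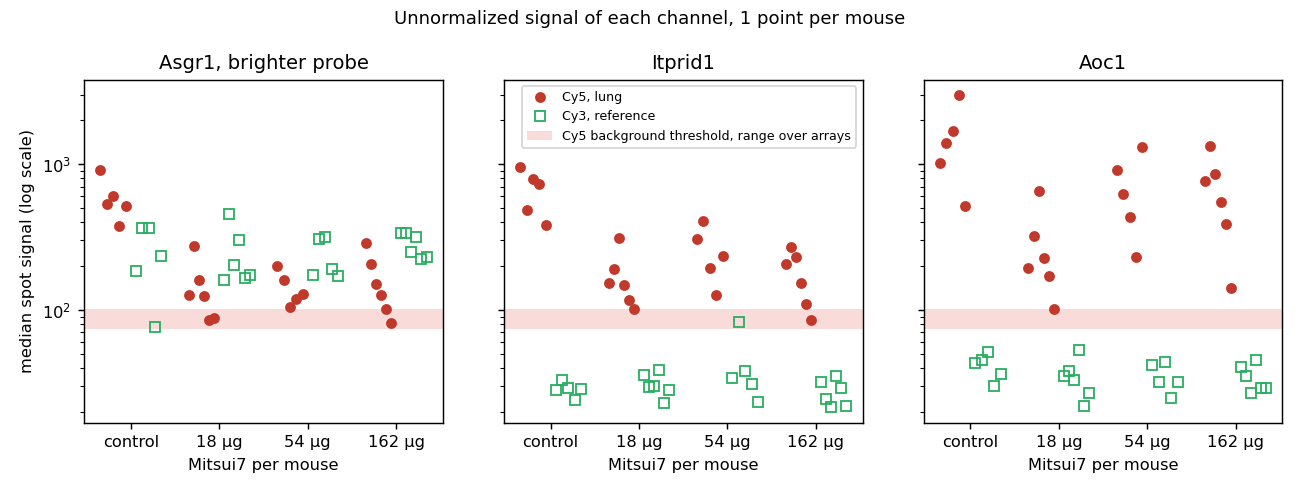
Median spot signal before normalization on a log scale (y axis) for the brighter Asgr1 probe, Itprid1 and Aoc1, by dose (x axis), with 1 red circle (Cy5, lung) and 1 green square (Cy3, reference) per mouse and the range over arrays of the Cy5 background threshold as a band. Cy5 medians were 536 in controls against 126 to 138.5 in the exposed groups for Asgr1. The Cy3 signals of Itprid1 and Aoc1 lie under the band on all arrays but that of Itprid1 in replicate 2 at 54 µg. The band is for Cy5 only, and Cy3 has its own threshold.

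Aoc1 lay apart from the controls at the smallest dose only. The controls had log2 ratios of 3.41, 4.60, 4.49, 4.59 and 3.34. At 18 µg all 6 mice lay below these, from 0.79 to 3.19 with a median of 2.28. At 54 µg the mice were at 2.94, 3.35, 3.69, 2.38 and 4.73, and 2 of 5 lay below all controls. At 162 µg they ran from 1.65 to 4.43 with a median of 3.63, and 2 of 6 lay below all controls. Replicate 5 at 54 µg was higher than any control, and replicate 6 at 162 µg was far lower than the others of its dose. The control mean of Aoc1 was 4.09 ± 0.65 (SD, n = 5), that for 18 µg 2.12 ± 0.89 (SD, n = 6), that for 54 µg 3.42 ± 0.88 (SD, n = 5) and that for 162 µg 3.43 ± 0.96 (SD, n = 6). The means at 54 and 162 µg were alike, the step from 162 µg to control was smaller than the SD at 162 µg, and the step from 18 µg to 54 µg was larger than the SD of either group.

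The fitted log2 fold change of Aoc1 was -1.82 (SE 0.41) at 18 µg, a 3.52-fold lower level. It was -0.37 (95% interval -1.28 to 0.55) at 54 µg and -0.70 (95% interval -1.55 to 0.16) at 162 µg, so a fall as large as that at 18 µg lay outside both intervals. Both intervals span 0 and hold falls as well, so whether Aoc1 was lowered at the higher doses was not settled by these values. At 54 µg the estimate rested on single mice, and was -0.88 without replicate 5 and -0.042 without replicate 2. Its Cy3 signal was well above background on 3 of 22 arrays. The Cy5 channel alone gave changes of -1.76, -0.77 and -1.02 at the 3 doses.

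RefSeq gives Aoc1 2 start sites, and both windows are printed because it is not known here which of them lung uses. They are chr6:48895005-48895304 and chr6:48904736-48905035 on the + strand of GRCm38.p6, on the same chromosome as Itprid1.
Aoc1 promoter, upstream: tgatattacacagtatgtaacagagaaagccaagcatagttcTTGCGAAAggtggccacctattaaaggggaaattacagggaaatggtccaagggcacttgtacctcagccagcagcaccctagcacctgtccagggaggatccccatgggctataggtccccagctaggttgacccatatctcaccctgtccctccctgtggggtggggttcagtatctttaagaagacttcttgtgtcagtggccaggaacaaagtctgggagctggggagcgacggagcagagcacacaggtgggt
Aoc1 promoter, downstream: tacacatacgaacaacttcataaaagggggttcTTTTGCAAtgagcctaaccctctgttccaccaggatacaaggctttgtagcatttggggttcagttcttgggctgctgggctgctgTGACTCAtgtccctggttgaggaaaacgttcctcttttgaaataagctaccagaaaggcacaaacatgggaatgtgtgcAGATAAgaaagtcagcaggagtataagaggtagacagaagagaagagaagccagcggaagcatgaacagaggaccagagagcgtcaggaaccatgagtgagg

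**Figure D3:**
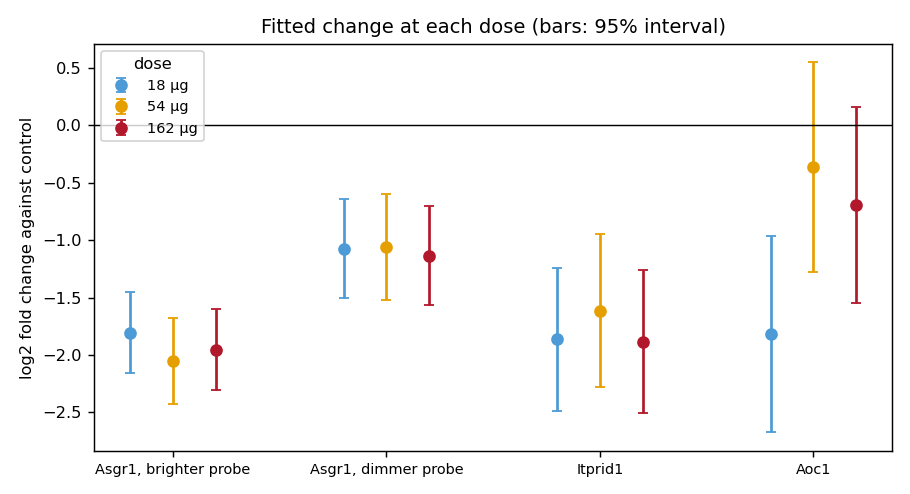
Fitted log2 fold change against control (y axis) for both Asgr1 probes, Itprid1 and Aoc1 (x axis) at the 3 doses, with 95% intervals from the fit on dose and slide. The intervals of Asgr1 and Itprid1 lie below 0 at all doses, and those of Aoc1 cross 0 at 54 and 162 µg.

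A gene was called against control if it changed 1.5-fold or more with an adjusted p no higher than 0.05. All 3 genes were called lower at 18 µg, where 1.44% of expressed genes were. At 54 µg Asgr1 and Itprid1 were called, against 0.128% of genes, and at 162 µg the same pair, against 3.52% of genes. These counts come from the changes that chose the genes, and nothing is read from them. Ranked from the largest fall over 16429 expressed genes, Asgr1 was at rank 11 at 18 µg, 1 at 54 µg and 2 at 162 µg, Itprid1 at rank 9, 3 and 5, and Aoc1 at rank 10, 1049 and 573. When each mouse was left out in turn, Asgr1 on its brighter probe was called at every dose in all 22 fits. Itprid1 at 54 µg was called in 5 and Aoc1 at 18 µg in 9. With all mice kept, the dimmer Asgr1 probe was called at 18 and 162 µg but not at 54 µg (adjusted p = 0.0678 in limma). These calls rest on the same changes and are likewise only a description.

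Differences between doses describe whether the falls grew with dose. They share the exposed mice with the falls that chose the genes, so they are not independent of the choice. Over the 3 genes and 3 pairs of doses, 0 differences passed the threshold in limma, and both of those with an unadjusted p under 0.05 were of Aoc1. Among all expressed genes, 0.0304% were called for 54 µg against 18 µg and 4.98% for 162 µg against 18 µg. For 162 µg against 54 µg 0% were called, although 1995 genes had an unadjusted p under 0.05 there. Asgr1 differed by -0.25 (95% interval -0.60 to 0.10, adjusted p = 0.659) from 18 to 54 µg and by -0.15 (95% interval -0.48 to 0.18, adjusted p = 0.726) from 18 to 162 µg. For Itprid1 the differences were 0.25 (95% interval -0.38 to 0.87, adjusted p = 0.831) and -0.022 (95% interval -0.61 to 0.56, adjusted p = 0.983). A 9-fold step in dose thus changed Asgr1 by at most 1.39-fold and Itprid1 by at most 1.52-fold within these intervals. Exposed Cy5 medians were 126 to 138.5 for the brighter Asgr1 probe and 151 to 234.5 for Itprid1, without subtraction of local background. Signal near the floor can compress differences between doses, so these bounds hold only for the unsubtracted ratios. Between 54 and 162 µg the differences were 0.098 for Asgr1, -0.27 for Itprid1 and -0.33 for Aoc1, with adjusted p-values of 0.958, 0.921 and 0.936 in limma.

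For Aoc1 the estimates at both larger doses were above that at 18 µg, without passing the threshold. It was higher by 1.45 (SE 0.41, 95% interval 0.60 to 2.31, adjusted p = 0.234) at 54 µg and by 1.12 (SE 0.38, 95% interval 0.32 to 1.92, adjusted p = 0.119) at 162 µg than at 18 µg. The first of these was 0.75 without replicate 5 at 54 µg. The second did pass in limma when the 6 arrays on slides without a control were left out (1.19, SE 0.21, adjusted p = 0.00626), when replicate 5 at 54 µg was left out (1.12, adjusted p = 0.000823) and when replicate 6 at 162 µg was left out (1.45, adjusted p = 0.0313). In all, the difference of 162 µg from 18 µg passed in 2 of 22 fits that left out 1 mouse and in 3 of 12 other alternatives. Since the fall at 18 µg was among the values that chose Aoc1, neither difference is independent of the choice.

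Within slides the controls could be set directly beside the exposed mice they were hybridized with. These differences restate the falls that chose the genes and are only a description. For Asgr1 and Itprid1 each had to be negative, since every exposed mouse lay below every control. Exposed mice on a slide share its control, so their differences are not independent of each other. Asgr1 was lower than the control of its slide in 4 of 4 mice at 18 µg, 3 of 3 at 54 µg and 4 of 4 at 162 µg, with differences from -2.44 to -1.06 on the log2 scale. Itprid1 was lower in 4 of 4, 3 of 3 and 4 of 4 mice, with medians of -1.66, -2.14 and -1.63. On the slide of control replicate 4, Itprid1 differed least, by -0.76 at 18 µg and -0.82 at 162 µg. For Aoc1 the medians were -1.64 at 18 µg, -0.96 at 54 µg and -0.36 at 162 µg, and on all 3 slides that held a control beside mice given 18 µg and 162 µg, the 18 µg mouse was the lower of the exposed pair. At 162 µg, 2 of the 4 differences of Aoc1 were close to nil (-0.061 and -0.022).

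**Figure D4:**
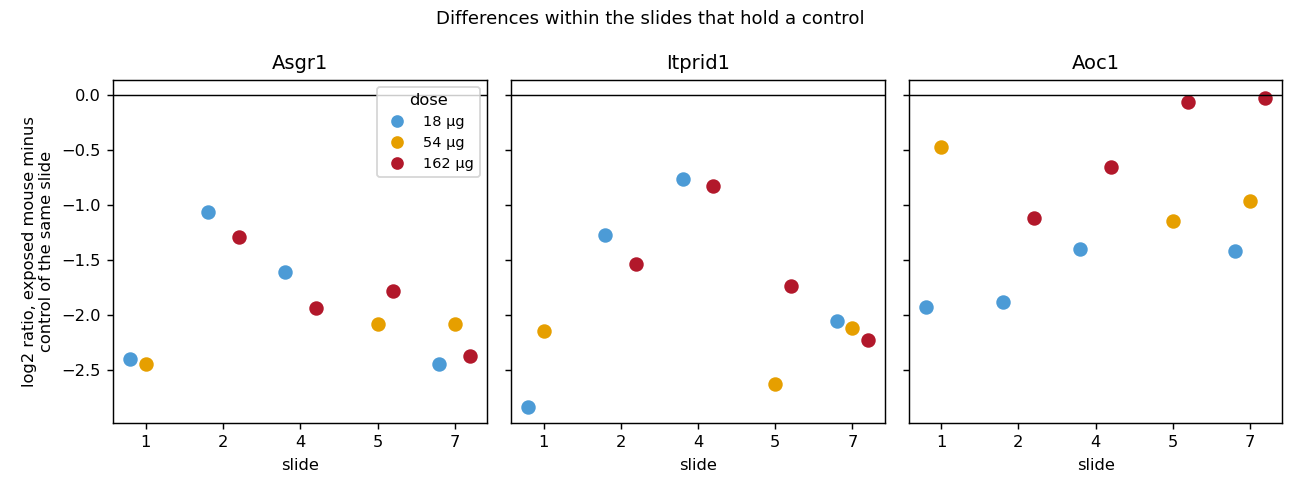
Log2 ratio of each exposed mouse minus that of the control on the same slide (y axis) for Asgr1, Itprid1 and Aoc1 on the 5 slides that hold a control (x axis), coloured by dose. All 11 differences of each gene lie below 0, and those of Aoc1 at 162 µg run from -1.12 to -0.022. The mice of a slide share its control, so the differences are not independent of each other.

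Itprid1 and Aoc1 varied together from mouse to mouse, more closely than Asgr1 did with either. Over the 17 exposed mice Pearson's r between Itprid1 and Aoc1 was 0.77 and Spearman's rho 0.71, and r was 0.66 in the 15 mice left without the 2 farthest from the Itprid1 median. After dose and slide were removed from all 22 arrays r was 0.68. Between Asgr1 and Itprid1 r was 0.76 over all 22 mice, -0.029 over the exposed mice and 0.37 after dose and slide. Between Asgr1 and Aoc1 these values were 0.25, -0.32 and -0.14. Replicate 6 at 18 µg and replicate 6 at 162 µg, which lay on 1 slide, were the lowest mice of their dose in both Itprid1 and Aoc1, but replicate 5 at 54 µg of that slide was not low in either.

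The spread of an array moved with Itprid1 and Aoc1. The standard deviation of the log2 ratios over all probes ranged from 0.90 to 1.02 over the controls. It was 0.80 to 0.94 for 18 µg, 0.87 to 0.98 for 54 µg and 0.79 to 1.05 for 162 µg. Across the 22 arrays it had an r of 0.67 with Itprid1 and 0.78 with Aoc1, both of which have high ratios to the reference, and 0.15 with Asgr1. After dose and slide were removed r was 0.83, 0.55 and 0.14. The log2 median Cy5 signal of the array had an r of 0.52 with Itprid1, 0.55 with Aoc1 and 0.12 with Asgr1, and after dose and slide of 0.32, 0.32 and 0.30. The part of array quality in the levels was not tested. When the log ratios were scaled to the same spread on each array, r between Itprid1 and Aoc1 was 0.66 after dose and slide, and the falls at 18 µg were -1.80 for Asgr1, -1.74 for Itprid1 and -1.74 for Aoc1.

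Markers of airway ciliated cells moved with the same genes. All 5 of the listed markers (Foxj1, Dnah5, Ccdc39, Rsph1 and Tekt1) were expressed. Their mean log2 ratio ranged from 3.15 to 3.59 over the controls. For 18 µg it was 1.18 to 3.51, with 5 of 6 mice under the lowest control, for 54 µg 2.18 to 3.41, with 4 of 5, and for 162 µg 1.02 to 3.06, with 6 of 6. Each of the 5 had a negative estimate at every dose, and limma called Ccdc39 and Rsph1 lower at 162 µg, where 3.52% of genes were. It called 0 of the 5 at 18 µg and 0 at 54 µg, with an unadjusted p under 0.05 for 4 and 1 of them. Over the 22 mice this mean had an r of 0.82 with Itprid1 and 0.84 with Aoc1, the highest of 16 marker lists for both, and of 0.39 with Asgr1. After dose and slide were removed the values were 0.70, 0.78 and 0.12, and other lists came as close or closer. Smooth muscle markers, 5 of 5 expressed, then had an r of 0.71 with Itprid1 and 0.67 with Aoc1, and goblet cell markers, 3 of 3 expressed, 0.65 and 0.81. Basal cell and alveolar macrophage markers had 0.69 and 0.68 with Aoc1. The smooth muscle mean was 1.13 to 2.71 over the controls and 1.20 to 2.67, 1.11 to 2.61 and 1.19 to 2.92 with rising dose, and the goblet mean 1.90 to 3.97 over the controls and 0.67 to 5.75, 1.73 to 4.35 and 1.71 to 4.28, so exposed mice overlapped the controls in both. The basal mean was -0.19 to 0.84 over the controls and -0.12 to 0.71, -0.078 to 0.83 and -0.36 to 0.44 with rising dose. The alveolar macrophage mean, 5 of 5 expressed, was 3.57 to 4.05 over the controls and 3.47 to 4.55, 3.51 to 4.39 and 3.54 to 4.50 with rising dose. The part of any of these cells in the falls of Itprid1 and Aoc1 was not tested.

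**Figure D5:**
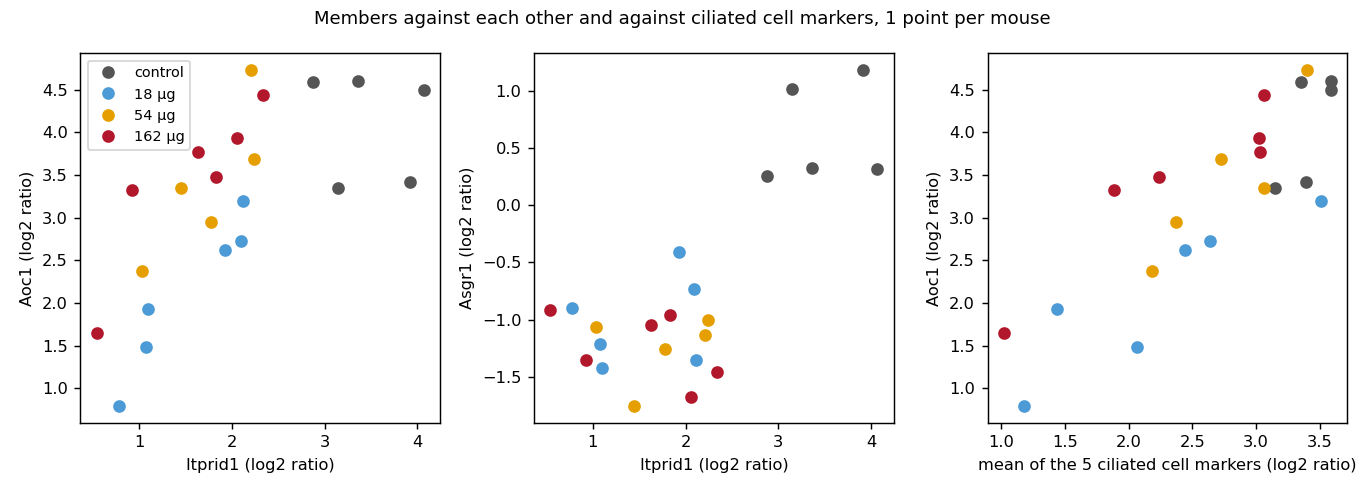
Log2 ratios of Aoc1 against Itprid1, of Asgr1 against Itprid1 and of Aoc1 against the mean of the 5 ciliated cell markers, with 1 point per mouse coloured by dose. Aoc1 follows Itprid1 and the ciliated mean through the exposed mice, whereas Asgr1 separates the 5 controls from the 17 exposed mice with an r of -0.029 among the exposed.

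Hepatocyte markers were checked because Asgr1 is best known from liver. Of 8 listed, 5 were expressed and Apoa1, Apoh and Ttr were not above the negative controls. Their mean log2 ratio ranged from 0.23 to 0.95 over the controls, and was 0.10 to 1.23, 0.36 to 0.93 and 0.31 to 2.54 with rising dose, so controls were not the highest group. Club cell markers, of which 3 of 4 were expressed, ran from 6.59 to 7.79 over the controls, and from 5.68 to 7.55, 5.01 to 7.06 and 6.17 to 7.46 with rising dose. All 3 had negative estimates at every dose, and 2 had an unadjusted p under 0.05 in limma at each dose. Of the 3, 0 were called at 18 and 54 µg, and 1 was called lower at 162 µg, where 3.52% of genes were. Over all mice, Asgr1 had its most negative r of the 16 lists with alveolar macrophage markers (-0.52). All 5 of these were expressed, and their mean ran from 3.57 to 4.05 in controls and from 3.47 to 4.55 in exposed mice. After dose and slide were removed this r was -0.23. Mast cell (-0.43), neutrophil (-0.38) and monocyte (-0.35) markers were then more negative. The part of these cells in the fall of Asgr1 was not tested.

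Genes that followed the members across the 22 mice were ranked by Pearson's r over 15000 expressed genes with a value on every array, as a description. Asgr1 was followed most closely by Igf1r, the receptor of insulin-like growth factor (r = 0.83), Gpx8, a peroxidase of the endoplasmic reticulum (0.82), the vitamin C transporter Slc23a2 (0.81), the phosphatase subunit Ppp2r2b (0.80) and the dynein subunit Dync2li1 (0.80). Their own changes were smaller than that of Asgr1, between -0.85 and -0.42 over the doses. The most opposite genes were the cationic amino acid carrier Slc7a1 (-0.81), spermidine synthase Srm (-0.80) and CTP synthase Ctps (-0.80), all of which had positive estimates at each dose.

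Itprid1 was followed by the other vitamin C transporter Slc23a1 (r = 0.91), Dbndd1 (0.89), the kinase anchor Akap14 (0.89), the transcription factor Zfp750 (0.89) and the phosphatase Cdc14a (0.89). All 5 had negative estimates at each dose, from -1.34 to -0.65. The actin-binding protein Dbn1 (-0.84), the orphan receptor Gpr176 (-0.78) and Srm (-0.77) were the most opposite to it.

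Aoc1 was followed by Klhdc9 (r = 0.93), the kallikrein protease Klk11 (0.92), the cytochrome P450 Cyp2a4 (0.91), Ccdc78, which takes part in making centrioles for motile cilia (0.90), and the metalloprotease Adamdec1 (0.89). As with Aoc1, the estimate of each was most negative at 18 µg, between -2.61 and -0.93, and nearer to 0 at the higher doses. Cyp2a4 has a near-identical paralog and its probe may read both. The serine synthesis enzyme Phgdh (-0.86), Dbn1 (-0.85) and Gm8096 (-0.84) were the most opposite. After dose and slide were removed, r was between 0.79 and 0.92 for the 5 genes nearest Aoc1 and between 0.66 and 0.72 for those nearest Itprid1, but between -0.11 and 0.57 for those nearest Asgr1. Ranked on Spearman's rho instead, 0, 0 and 2 of the 5 nearest genes of Asgr1, Itprid1 and Aoc1 were again among the nearest 5. Ranked on what was left after dose and slide, 0 of the 5 were again among the nearest 5 of any of the 3 genes.

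Other genes of the members' pathways mostly did not pass the test. Over 6 lists, 65 of 72 genes were expressed, and 1 was higher and 1 lower at 18 µg (3.08% in all, where 0.651% of all genes were higher and 1.44% lower), 1 was higher at 54 µg (1.54%, against 0.225% higher and 0.128% lower) and 3 were higher and 3 lower at 162 µg (9.23%, against 3.32% higher and 3.52% lower). Their median log2 fold change was -0.025, 0.019 and 0.017 at the 3 doses, beside -0.021, -0.012 and -0.0070 over all expressed genes.

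Among galactose lectins and the enzymes that add or remove sialic acid, 13 of 15 were expressed. Asgr2, the partner of Asgr1, had log2 ratios of -0.017 to 0.29 over the controls, and of -0.038 to 0.48, -0.24 to 0.082 and -0.67 to 0.061 with rising dose, and its groups overlapped. Its log2 fold change was 0.11, -0.22 and -0.40, with adjusted p-values of 0.774, 0.748 and 0.0852 in limma, and at 18 µg, where Asgr1 was 3.49-fold lower, the estimate of Asgr2 lay above 0 (SE 0.13). The scavenger lectin Colec12 fell by 0.65 on the log2 scale (adjusted p = 0.00879 in limma) at 162 µg, the only gene of this list called.

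Of the histamine genes, 6 of 9 were expressed and limma called 0 at each dose, with an unadjusted p under 0.05 for 0 at 18 µg, 1 at 54 µg and 0 at 162 µg. Hdc, which makes histamine, had a log2 fold change of 0.29, -0.21 and -0.46 (adjusted p = 0.631, 0.910 and 0.340 in limma). Hnmt, the methyltransferase that inactivates histamine inside cells, was at 0.14, 0.059 and 0.16 (adjusted p = 0.786, 0.982 and 0.760 in limma). The control spread of Hdc was 0.17 (SD, n = 5) and that of Hnmt 0.27 (SD, n = 5). At 162 µg the spread was 0.65 for Hdc and 0.69 for Hnmt (SD, n = 6). The estimates of Hdc and Hnmt were below 0.5 in size at all doses.

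The other amine oxidases were all expressed, and 1 of 9 was called. Lox, a copper enzyme that cross-links collagen and elastin, had log2 ratios of -2.89 to -2.03 in controls and -1.40 to -0.043 at 162 µg, which do not overlap, and rose by 1.80 (SE 0.26, adjusted p = 0.000727 in limma). It was also 1.70 higher at 162 µg than at 18 µg (adjusted p = 0.000885 in limma). The relatives nearest in sequence to Aoc1 were not called. Aoc3 differed from control by -0.90 (SE 0.60), -0.26 (SE 0.64) and -0.11 (SE 0.60), and Aoc2 by 0.047, -0.018 and -0.043 (SE 0.12 to 0.13).

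Polyamine genes, 11 of 12 expressed, included Srm, which makes spermidine from putrescine. Srm was at -2.59 to -2.20 over the controls and at -1.71 to -1.03, -1.83 to -1.23 and -1.61 to -0.78 with rising dose, so all exposed mice lay above all controls. It rose by 1.00, 0.78 and 1.00 (adjusted p = 0.00282, 0.0249 and 0.000254 in limma), nearly level over the doses as Asgr1 and Itprid1 were. Azin2, which binds antizyme and so keeps ornithine decarboxylase from breakdown, rose by 0.62 at 162 µg (adjusted p = 0.0385 in limma). Among copper transport genes, 10 of 11 expressed, Sco2, a copper chaperone of cytochrome oxidase, fell by 0.98 on the log2 scale at 162 µg (adjusted p = 0.00145 in limma).

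All 16 listed IP3 receptor and store calcium genes were expressed. Itprid2 had positive estimates of 0.45, 0.33 and 0.36 (SE 0.13 to 0.14, adjusted p = 0.0850, 0.479 and 0.123 in limma) where Itprid1 fell. The channel Itpr1 had log2 ratios of 1.79 to 2.03 in controls and 0.67 to 1.502 at 162 µg, without overlap, and fell by 0.68 on the log2 scale (adjusted p = 0.00298 in limma). Irag1, an IP3 receptor partner of smooth muscle, fell by 0.75 on the log2 scale at 18 µg (adjusted p = 0.0197 in limma). Stim1, the calcium sensor of the store, was 0.64 higher at 162 µg than at 18 µg (adjusted p = 0.0356 in limma).

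The 5 promoter windows of the 3 genes were searched on both strands for 13 short motifs, and the share of all 32851 RefSeq promoter windows that hold each is given beside it. An AP-1 motif (TGANTCA, 7.81% of windows) stood 226 bases before the upstream start of Asgr1 and 131 bases before the downstream start of Aoc1. A C/EBP motif (TTGCNNAA, 10.8%) was found in the upstream Asgr1 window and in both Aoc1 windows. A STAT motif (TTCNNNGAA, 8.30%) was found in both Asgr1 windows and in no other. Itprid1 held a forkhead motif (TGTTTNC, 20.5%) and an xenobiotic response element core (GCGTG, 32.4%), and the second Asgr1 window also held the latter. In the Asgr1 window the CCAAT match (CCAAT, 37.4%) overlaps the C/EBP match, and a GATA motif (AGATAA, 11.2%) was in the downstream Aoc1 window. The E-box (CANNTG, 72.3%) was in all 5 windows and is not set in capitals. No window held a TATA box (TATAAA, 13.6%), a GC box (GGGCGG, 35.7%), a cyclic AMP response element (TGACGTCA, 1.79%), an antioxidant response element core (TGACNNNGC, 12.4%) or an NF-kB motif (GGGNNTTCC, 5.82%). Apart from the E-box, none of the 13 was present in all 3 genes.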

How the data were processed

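For each of the 22 arrays, the deposited intensity values are the unsubtracted median spot signals of the lung (Cy5) and reference (Cy3) channels. The file headers give Feature Extraction 10.7.3.1 as the software. A table of log2 ratios was deposited as well, whose normalization is not given in the sources used here; it served as an alternative. The arrays carry no dye swap.

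Outlier spots were dropped, log ratios were normalized within arrays by loess (span 0.3, no background subtraction), and replicate spots were reduced to their median for 55681 probes, of which 26413 were named through RefSeq accessions (GRCm38.p6 annotation). With limma 3.58.1 in R 4.3.3, dose and slide were fitted over 22 arrays, with Benjamini-Hochberg adjustment over all probes. A gene is represented by its brightest probe. It counts as expressed if, on 80% or more of the arrays in any group, Cy5 exceeded the trimmed mean (5%) plus 3 trimmed SD of the 308 negative controls. The fit was tested on simulated data. The number of arrays limits the precision.

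The members, gene lists and motifs were chosen with earlier results of these data known. Named genes are the members, at most 6 called genes a list, the close relatives and histamine enzymes of the members, and for each member the 5 genes with the highest r and the 3 with the lowest. Promoter sequences are from RefSeq (GRCm38.p6). Alternatives were normexp background correction (offset 50), median centring, no normalization, quantile normalization between arrays, Cy5 alone (75th percentile), the deposited table, other slide terms, a replicate block, only the groups compared, other filters and leaving out each mouse. Leaving out the slides without a control and scaling the spread of arrays were added after the data were seen. Lavage cells and cell line arrays were not analysed here.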

Additional observations from a re-analysis of the deposited data

How the results depend on the processing

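The changes of Asgr1, Itprid1 and Aoc1 against control kept their direction at every dose under all 34 alternatives. Across them, Asgr1 ran from -2.04 to -1.47 at 18 µg, Itprid1 from -2.15 to -1.31 and Aoc1 from -1.96 to -1.60. Asgr1 changed by more than the spread between mice with the deposited log2 table, to -1.74 at 54 µg and -1.53 at 162 µg, and Itprid1 at 54 µg with only the groups compared, to -2.29. Quantile normalization between arrays left log ratios as they were by construction. With single mice left out, Asgr1 ranged from -1.99 to -1.67, -2.19 to -1.91 and -2.14 to -1.85 at the 3 doses, Itprid1 from -2.15 to -1.66, -1.87 to -1.29 and -2.17 to -1.74, and Aoc1 from -1.93 to -1.63, -0.88 to -0.042 and -0.94 to -0.48.

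Members called lower at 18 µg numbered 1 in place of 3 without normalization, which lost Itprid1 and Aoc1. They numbered 2 with the deposited log2 table, no slide term or scaled log ratios, which lost Aoc1. They also numbered 2 with only the groups compared, which lost Itprid1. Aoc1 at 18 µg was thus called in 8 of 12 alternatives other than leaving out a mouse. Among these 8 is quantile normalization, which repeats the main fit by construction. At 54 µg the members called lower numbered 1 in place of 2 with median centring, the deposited log2 table or scaled log ratios. They numbered 0 without normalization and 3 with only the groups compared. At 162 µg 1 was called without normalization in place of 2. With single mice left out the numbers ran from 1 to 3 at 18 µg (1 without control replicate 1), from 1 to 2 at 54 µg and stayed at 2 at 162 µg; the cause was not tested.

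Between doses, the Aoc1 difference of 162 µg from 18 µg passed the threshold in limma with the replicate block (1.31, adjusted p = 0.0172), with only the groups compared (0.98, adjusted p = 0.00374) and on slides that hold a control (1.19, adjusted p = 0.00626), so that 1 member was called there in place of 0. With single mice left out it ran from 0.88 to 1.45 and 0 to 1 members were called. Of 31 pairs of mice with the same number in different groups, 18 had deviations correlated above 0.1 (median r 0.21, lowest -0.26). Among 150 pairs with other numbers 36 did (median r -0.063), and among 24 pairs on the same slide 18 did (median r 0.27). Mice of the same number thus tended to vary together, as did mice of the same slide. Some pairs shared both number and slide, so these tendencies were not told apart. The labels give no pairing by number, so slide was the fitted term and number a block only in an alternative. The block changed no other call of a member.

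Pathway genes called at 18 µg, 2 in the report, numbered 0 with median centring or no normalization and 1 with Cy5 alone, the deposited log2 table, only the groups compared or scaled log ratios. At 54 µg, in place of 1, they numbered 0 with median centring, no normalization, Cy5 alone, the deposited log2 table or scaled log ratios, and 2 with only the groups compared. At 162 µg, in place of 6, they numbered 1 with median centring and 0 without normalization. Leaving out single mice gave 1 to 2, 0 to 2 and 4 to 7. Genes called at 18 µg ranged from 2 without normalization to 585 without replicate 5 at 54 µg, at 54 µg from 0 to 597, and at 162 µg from 5 to 1403. Dim signal limits these data most for the second Asgr1 probe and for the reference signal of Itprid1 and Aoc1.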
